A study of Homo sapiens with 10 samples.

Results

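Cholesterol and fatty acid synthesis was followed through 31 genes of the 18144 listed in the expression table, matched by gene symbol, with the rule reading no expression value. They comprised 18 enzymes of the sterol branch, 8 enzymes of fatty acid synthesis and desaturation, and 5 regulators or sterol carriers. The sterol branch was divided into 7 enzymes of the mevalonate steps (ACAT2, HMGCS1, MVK, PMVK, MVD, IDI1, FDPS) and 11 enzymes that lead from squalene synthesis to cholesterol (FDFT1, SQLE, LSS, CYP51A1, TM7SF2, MSMO1, NSDHL, HSD17B7, EBP, SC5D, DHCR7). All 31 passed the filter on low values described with the processing, as did 14836 genes in all.

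The samples were 3D spheroids of PC-3, an androgen receptor-low human prostate cancer cell line labelled wild type, and RNA was sequenced in bulk. Spheroids were untreated or exposed to topotecan, a topoisomerase I inhibitor, under 1 of 2 schedules. In CONV-TOPO the drug was given as a bolus at the start, and in EE-TOPO (extended exposure, also called metronomic) it was added in small daily amounts. The paper gives each daily amount as a fraction of the bolus, with equal totals over a week. By that account EE-TOPO spheroids had received less drug than CONV-TOPO spheroids by day 3. The libraries analysed were untreated spheroids on days 0, 3 and 7, CONV-TOPO on days 3 and 7 and EE-TOPO on days 3 and 7, and the 3 day 1 libraries were not analysed here. Each treatment and day had 1 library, from 1 cell line, so no difference had a replicate check, and the error given with a ratio is counting error only. The series text describes a longer, several-week exposure than the day in these labels, and the time behind day 7 rests on the labels alone.

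Cholesterol is built from acetyl-CoA through mevalonate, farnesyl diphosphate, squalene and lanosterol, whereas fatty acids are built from the same acetyl-CoA through malonyl-CoA. Both branches are controlled by the SREBP transcription factors, which are held in the endoplasmic reticulum by SCAP and INSIG proteins when sterols are plentiful and are cut and sent to the nucleus when sterols fall. SREBP-2 acts mainly on sterol genes and SREBP-1 more on fatty acid genes, and prostate cancer cells are known for active lipid synthesis.

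SREBPs are known to bind sterol regulatory elements, often beside CCAAT boxes bound by NF-Y, so the 250 bases before each annotated start were searched on both strands for TCACNCCAC and for CCAAT. RefSeq promoters (GRCh38.p14) were found for 27 of the 31 genes, with 37 promoters in all. ACAT2, FDFT1, SQLE and FASN had no entry. CCAAT was present in 24 of the 37 promoters (64.9%), against 32.0% of all 35116 promoters. In the sterol branch 15 of 20 promoters held it (75.0%) and in the fatty acid branch 6 of 12 (50%). Counted by gene, 20 of 27 had it in at least 1 promoter (74.1%), against 41.0% of the genes tested that had a promoter entry. TCACNCCAC was found in 1 promoter, that of SREBF2 (2.70% of 37), against 0.883% of all promoters, and no match of 1 motif overlapped a match of the other. Stretches are shown for the 5 genes with the lowest EE-TOPO to CONV-TOPO ratio on day 7 whose CCAAT-containing stretch overlapped no annotated exon, a choice made after the ratios were known, and for the TCACNCCAC match in SREBF2. Each reads 5′ to 3′ on the strand of the gene, with capitals for CCAAT, its reverse complement ATTGG, or TCACNCCAC.
HSD17B7, chr1:162790635-162790669 (+ strand), 67 to 33 bases before the start: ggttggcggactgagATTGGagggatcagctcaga
INSIG1, chr7:155297693-155297727 (+ strand), 185 to 151 bases before the start: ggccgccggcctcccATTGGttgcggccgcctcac
IDI1, chr10:1049217-1049349 (- strand), 230 to 98 bases before the start: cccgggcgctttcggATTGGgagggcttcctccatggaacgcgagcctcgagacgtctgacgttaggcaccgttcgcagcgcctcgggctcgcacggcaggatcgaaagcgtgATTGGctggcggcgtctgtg
MSMO1, chr4:165327469-165327654 (+ strand), 200 to 15 bases before the start: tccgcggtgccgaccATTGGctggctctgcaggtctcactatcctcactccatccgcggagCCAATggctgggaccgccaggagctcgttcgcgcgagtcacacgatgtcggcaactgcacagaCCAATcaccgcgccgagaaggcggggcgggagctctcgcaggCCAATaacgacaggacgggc
EBP, chrX:48521602-48521797 (+ strand), 206 to 11 bases before the start: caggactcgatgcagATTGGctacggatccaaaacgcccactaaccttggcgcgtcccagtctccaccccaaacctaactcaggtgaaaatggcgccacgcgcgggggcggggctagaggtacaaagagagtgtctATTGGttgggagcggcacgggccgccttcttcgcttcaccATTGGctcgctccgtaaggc
SREBF2, chr22:41832962-41832990 (+ strand), 143 to 115 bases before the start: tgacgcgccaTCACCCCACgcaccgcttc
The stretches of HSD17B7 and INSIG1 held 1 match each, those of IDI1, EBP and MSMO1 held 2, 3 and 4, and a match is a description of the letters and not evidence of binding.

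Estimated depth was 15028000 to 22477000 reads, and the treated libraries of day 7, at 16453000 (CONV-TOPO) and 15028000 reads (EE-TOPO), were among the shallower ones. Epithelial and PC-3 markers were present throughout (8 of 8, summed level 3518 to 5190 CPM), whereas KLK3 and KLK2 were not listed. Of 9 markers of other cells, 4 stayed under the filter in all 7 libraries (PTPRC, VWF, DCN and MYH11), while CD68, COL1A1, PECAM1 and LYZ were detected, with a summed level of 149 to 219.8 CPM for the list. In bulk spheroids, fewer cells of a type and less RNA per cell cannot be told apart.

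Levels spanned a wide range. Per kilobase of annotated transcript and averaged over the 7 libraries, FADS2 was highest at 317 CPM per kb, followed by FDPS (218), SCD (149), EBP (112) and DHCR7 (106), and ELOVL6 was lowest at 0.953. FADS2 and FADS1, the delta-6 and delta-5 desaturases of polyunsaturated fatty acids, overlap by 802 bases on opposite strands of chromosome 11. The library kit does not mark strand, so reads in that stretch cannot be assigned to 1 of the 2 genes. The same holds for ACAT2, which shares 616 bases with TCP1 and 238 with SOD2. HMGCS1 and ACACA lie inside the listed spans of multicopy genes, which averaged at most 6.44 CPM.

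The comparison of EE-TOPO with CONV-TOPO on day 7 asks how the 2 schedules of 1 drug differ. Here 30 of the 31 genes were lower in EE-TOPO, against 7578 of the 14836 genes tested, and PMVK was the exception. Of the 30, 25 were lower beyond counting error, which was not assessed over all genes. With library totals in place of TMM scaling 29 were lower, against 6972 of the 14836 genes, and SCAP joined PMVK above 0. The median log2 ratio was -0.64 over the 18 sterol enzymes, -0.48 over the 8 fatty acid enzymes and -0.15 over the 5 regulators and carriers, whereas it was -0.0075 over all genes tested. Ratios were taken on the log2 scale after TMM scaling, which aligns the bulk of genes between libraries, with 1 CPM added. With 1 library per group a gene was called when it differed at least 1.5-fold. By this rule 14 of the 31 genes were lower in EE-TOPO, against 4.1% of all genes tested, and 0 were higher, against 5.03%. These were 10 sterol enzymes (ACAT2, HMGCS1, MVD, IDI1, FDPS, FDFT1, SQLE, MSMO1, HSD17B7 and EBP), 3 fatty acid enzymes (ACSS2, FASN and FADS2) and INSIG1. FASN and FADS2 lay just inside the threshold at -0.59 and -0.60, CYP51A1 just outside at -0.58, and 0 genes passed 2-fold. With library totals FASN and FADS2 fell outside, which left 12. After removal of a trend fitted to GC content, gene span and the length of the transcript, the count was again 14, of which 13 were shared, as FASN (-0.58) fell outside and CYP51A1 (-0.60) came inside. The share of all genes past 1.5-fold was not counted in these alternative settings.

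**Figure D1:**
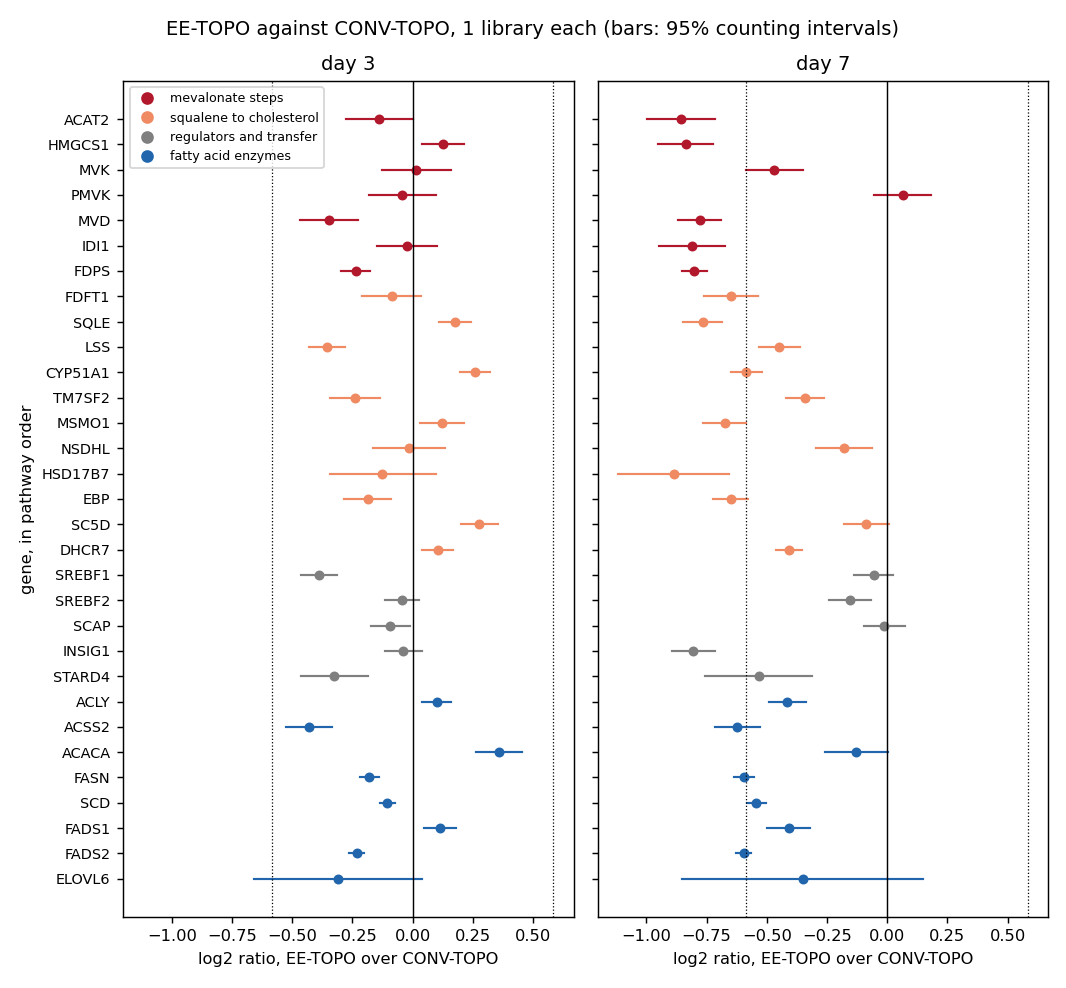
Log2 ratio of EE-TOPO over CONV-TOPO for the 31 genes in pathway order (vertical axis) on day 3 (left) and day 7 (right); points are TMM-scaled CPM ratios of 1 library each, bars are 95% intervals for counting error, colours mark the 4 gene groups and dotted lines mark 1.5-fold. On day 7 all points but PMVK lie left of 0 and 14 lie beyond the dotted line, whereas on day 3 the points scatter on both sides of 0 and none reaches it.

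Among the mevalonate enzymes the median log2 ratio was -0.80, and 5 of 7 were called. HMGCS1, which makes HMG-CoA, was listed at 104, 134 and 120.3 CPM in untreated spheroids on days 0, 3 and 7. CONV-TOPO held 115 and 110.1 CPM of it on days 3 and 7, and EE-TOPO held 128 and 62.9 CPM on the same days. The EE-TOPO library of day 7 was thus the lowest of the 7, and its level was 0.560-fold (95% counting interval 0.517 to 0.606) that of CONV-TOPO. ACAT2, the cytosolic thiolase that joins 2 acetyl-CoA molecules, was at 64.5, 64.8 and 60.3 CPM in untreated, 47.9 and 73.3 CPM in CONV-TOPO and 44.2 and 41.4 CPM in EE-TOPO spheroids, in the same order of days. Its day 7 ratio was 0.553-fold (0.501 to 0.609).

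MVD, which decarboxylates mevalonate diphosphate to isopentenyl diphosphate, was at 62.7, 77.6 and 66.3 CPM untreated and 67.7 and 177 CPM in CONV-TOPO. In EE-TOPO it was at 54.1 and 105 CPM, so that both day 7 libraries stood above the untreated ones while the ratio between them was 0.583-fold (0.548 to 0.620). IDI1, which isomerises isopentenyl diphosphate, was at 52.2, 68.1 and 64.0 CPM untreated, 58.0 and 76.5 CPM in CONV-TOPO and 58.1 and 44.5 CPM in EE-TOPO, a day 7 ratio of 0.570-fold (0.518 to 0.626).

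FDPS, the farnesyl diphosphate synthase, had the highest level per kb of the mevalonate group. In CPM it was at 242, 319 and 276 CPM in untreated spheroids, 257 and 532 CPM in CONV-TOPO and 222 and 311 CPM in EE-TOPO. The CONV-TOPO library of day 7 was the highest of the 7, and the EE-TOPO level was 0.574-fold (0.554 to 0.595) of it. Its processed pseudogene FDPSP2 was listed at 0.0665 to 0.400 CPM, and whether reads were shared with it was not examined. The kinases MVK and PMVK had log2 ratios of -0.46 and 0.064 and were not called.

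From squalene synthesis to cholesterol the median was -0.58, all 11 enzymes were lower in EE-TOPO and 5 were called. FDFT1, squalene synthase, was at 68.2, 68.2 and 67.8 CPM untreated, 61.2 and 105 CPM in CONV-TOPO and 58.6 and 68.5 CPM in EE-TOPO. In deposited CPM only the CONV-TOPO library of day 7 stood apart from the other 6. On the TMM scale EE-TOPO on day 7 (76.1) was also above the untreated libraries (64.5 to 69.5). The day 7 ratio of EE-TOPO to CONV-TOPO was 0.638-fold (0.590 to 0.690). SQLE, the squalene epoxidase that commits squalene to sterols, was at 152, 195 and 198, 193 and 216 and 221 and 129 CPM in the 3 treatments, in that order. EE-TOPO on day 7 was the lowest library, at 0.588-fold (0.556 to 0.621) of CONV-TOPO.

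MSMO1, which removes the C4 methyl groups of sterol intermediates, was at 94.1, 114 and 109.8 CPM untreated, 103 and 172 CPM in CONV-TOPO and 114 and 110.2 CPM in EE-TOPO, and its day 7 ratio was 0.626-fold (0.589 to 0.666). HSD17B7, the 3-ketosteroid reductase of the same demethylation, was at 24.0, 24.6 and 24.7 CPM untreated, 19.5 and 28.7 CPM in CONV-TOPO and 18.1 and 15.9 CPM in EE-TOPO. Its ratio of 0.541-fold (0.461 to 0.634) was the lowest of the 31 genes, although its pseudogene HSD17B7P2, listed at 0.501 to 2.85 CPM, may share some reads. EBP, the sterol isomerase, was at 90.1, 111 and 92.1 CPM untreated, 97.2 and 243 CPM in CONV-TOPO and 86.8 and 158 CPM in EE-TOPO. Both day 7 libraries of EBP exceeded every other library, and EE-TOPO was at 0.637-fold (0.606 to 0.671) of CONV-TOPO.

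DHCR7, which catalyses the last step to cholesterol, and CYP51A1, the lanosterol demethylase, had the most reads of this group, with no account of length. DHCR7 was at 241, 269 and 262 CPM untreated, 204 and 421 CPM in CONV-TOPO and 222 and 324 CPM in EE-TOPO, with a day 7 ratio of 0.754-fold (0.727 to 0.783). CYP51A1 was at 199.7, 252 and 221 CPM, 204 and 304 CPM and 248 and 207 CPM in the same order of treatments. Its EE-TOPO level on day 7 lay within the untreated libraries, and the ratio to CONV-TOPO was 0.667-fold (0.637 to 0.697). The remaining LSS, TM7SF2, NSDHL and SC5D had log2 ratios between -0.44 (LSS) and -0.086 (SC5D).

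The regulators divided. INSIG1, itself an SREBP target that retains the SCAP-SREBP complex in the endoplasmic reticulum, was at 95.9, 128 and 136 CPM untreated, 146 and 182 CPM in CONV-TOPO and 145 and 106 CPM in EE-TOPO. CONV-TOPO on day 7 was the highest of the 7 libraries, and EE-TOPO was at 0.572-fold (0.538 to 0.608) of it. SREBF2, which encodes SREBP-2, was at 157, 167 and 194 CPM untreated, 175 and 141 CPM in CONV-TOPO and 172 and 129 CPM in EE-TOPO, a log2 ratio of -0.15 on day 7. SREBF1, which encodes SREBP-1, was at 146, 163 and 169, 176 and 164 and 137 and 161 CPM, and its ratio of 0.962-fold (0.910 to 1.02) was within counting error, as was that of SCAP (0.992-fold (0.935 to 1.05)). STARD4, a cytosolic sterol carrier, was lower in EE-TOPO beyond counting error but was not called (-0.51).

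All 8 fatty acid enzymes were lower in EE-TOPO on day 7, 6 of them beyond counting error. ACSS2, which makes acetyl-CoA from acetate, was at 107, 129.7 and 133 CPM untreated, 111 and 149 CPM in CONV-TOPO and 83.7 and 98.5 CPM in EE-TOPO. In deposited CPM both EE-TOPO libraries were below the other 5, which did not hold on the TMM scale, and the day 7 ratio was 0.650-fold (0.609 to 0.694). FASN, the fatty acid synthase, was at 628, 615 and 659.7 CPM untreated, 590.4 and 699 CPM in CONV-TOPO and 530.0 and 472 CPM in EE-TOPO, with both EE-TOPO libraries lowest on either scale, and its ratio was 0.663-fold (0.643 to 0.683).

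FADS2 was at 833, 989 and 949.6 CPM untreated, 971 and 1360.3 CPM in CONV-TOPO and 840.1 and 918 CPM in EE-TOPO. CONV-TOPO on day 7 was its highest library, and the ratio was 0.661-fold (0.648 to 0.676). SCD, the delta-9 desaturase that makes oleate, was at 589, 825 and 833 CPM untreated, 908 and 855 CPM in CONV-TOPO and 858 and 599 CPM in EE-TOPO, with a ratio of 0.686-fold (0.668 to 0.705). ACLY, which makes cytosolic acetyl-CoA from citrate, and FADS1 had log2 ratios of -0.41 and -0.41, whereas ACACA, the acetyl-CoA carboxylase, at -0.13, and ELOVL6, an elongase listed at 3.99 to 8.42 CPM, at -0.29, were within counting error.

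The sterol median was 0.17 lower than the fatty acid median on the log2 scale on day 7, and 0.10 lower without ELOVL6, the 1 member under a mean of 10 CPM. The ranges of the branches overlapped, from -0.85 to 0.064 in the sterol branch and from -0.62 to -0.13 in the fatty acid branch. This difference between branches had no test, as each value came from 1 library. The quadratic trend with span, length and GC content held 1.12% of the variance of this comparison over 11126 genes, and with it removed the medians were -0.63 and -0.50. Among the 31 genes, Spearman's rho between this ratio and transcript length was 0.37, against 0.017 over the 11126 genes, so shorter members tended to have lower ratios.

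Treatment effects over both days were tested with limma on 6 libraries, with 2 residual degrees of freedom. The error starts from the variation of an effect between days, which limma draws toward a spread shared over all genes. For EE-TOPO against CONV-TOPO, 28 of the 31 genes had a lower fitted value in EE-TOPO, a count not taken over all genes. With Benjamini-Hochberg adjustment 0 of 31 passed, against 0% of all genes tested, and 0 of 31 had an unadjusted limma p under 0.05, against 0.903% of all genes (134). When the fit was limited to the 4 libraries of the 2 schedules, 16 of the 31 genes had an unadjusted p under 0.05, all lower in EE-TOPO, against 10% of all genes tested. That fit left fewer residual degrees of freedom, so its errors leaned more on the shared spread. After adjustment ACSS2 alone of the 31 was called (limma log2 fold change -0.52 ± 0.11 SE, adjusted p = 0.0414), against 0.539% of all genes (80). The other alternatives to this fit gave 0 calls.

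On day 3 the same comparison gave a different picture. The sterol median was -0.032 and the fatty acid median -0.14, against -0.0012 over all genes, and 0 of 31 genes were called in either direction, against 3.19% of genes higher and 2.26% lower. The ratios ranged from -0.42 for ACSS2 to 0.35 for ACACA. Some members stood on opposite sides of 0 on the 2 days: HMGCS1 was at 0.12 on day 3, SQLE at 0.18 and CYP51A1 at 0.26. The difference between days was not tested, as each day had 1 library per schedule. By the paper's account of dosing, the total drug given by day 3 also differed between the schedules, which cannot be told apart from the schedule itself.

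**Figure D2:**
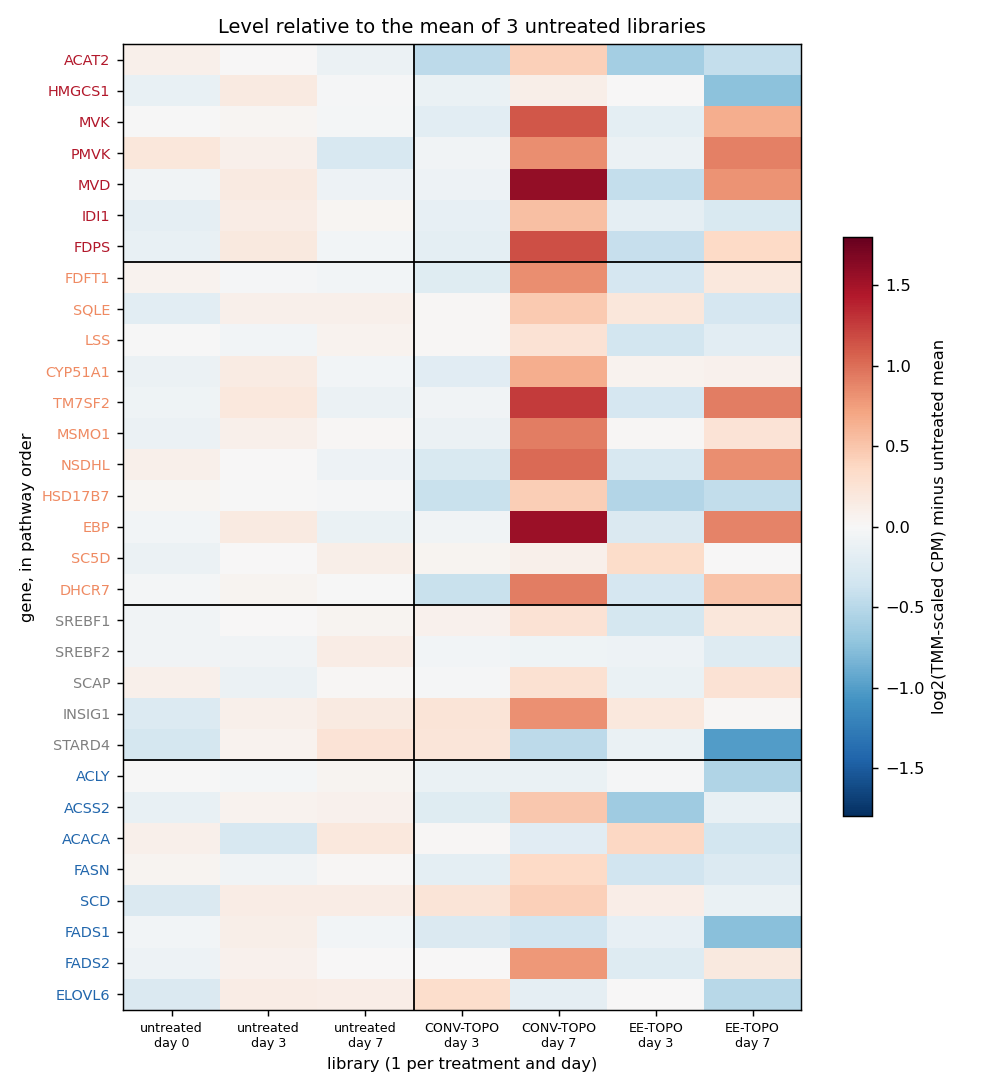
Level of the 31 genes (rows, in pathway order, label colours by group) in the 7 libraries (columns), as log2 TMM-scaled CPM minus the mean of the 3 untreated libraries; red is higher and blue lower. The CONV-TOPO day 7 column is mostly red in the sterol rows, the EE-TOPO day 7 column is paler and blue for HMGCS1, STARD4, FADS1 and ACLY, and most cells of both day 3 columns are near 0 or pale blue.

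Which of the 2 libraries departed from untreated spheroids was then asked on each day, with the same untreated library serving both schedules. In CONV-TOPO on day 7, 17 of the 18 sterol enzymes were higher than in untreated spheroids beyond counting error, with a median log2 ratio of 0.89. SC5D was at 0.997-fold (0.941 to 1.06). Of the 14836 genes tested 7005 were higher, with no account of counting error. With library totals in place of TMM scaling 15 were higher, against 5288 of all genes tested, and HMGCS1, LSS and SC5D were lower. MVD (3.18-fold (2.97 to 3.40)), EBP (3.15-fold (2.97 to 3.33)) and TM7SF2 (2.59-fold (2.44 to 2.75)) had the highest ratios on this scale, an order that changed with the trend removed, as given with the transcript lengths. The fatty acid median was 0.061, with 4 enzymes higher, led by FADS2 (0.77), and 4 lower, led by ACACA (-0.40). At 1.5-fold, 13 of 31 genes were higher (11 sterol enzymes, FADS2 and INSIG1), against 18.9% of all genes tested, and STARD4 was lower, against 22.5%. With the trend removed 9 were higher and 0 lower, and the shares of all genes given here do not apply to that setting. On the TMM scale CONV-TOPO on day 7 was the highest of the 7 libraries for 22 of the 31 genes, which was not counted over all genes. It stood above all 3 untreated libraries for 23 of 31, against 35.5% of all genes, and below them for 4 (SREBF2, STARD4, ACLY and FADS1), against 41.4%.

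In EE-TOPO on day 7 the members were split. The sterol median was 0.23 relative to untreated spheroids, and 11 enzymes were higher and 7 lower, all beyond counting error. Over the 14836 genes tested 7070 were higher and 7765 lower, with no account of counting error. At 1.5-fold, 6 of 31 genes were higher (MVK, PMVK, MVD, TM7SF2, NSDHL and EBP), against 20.1% of all genes tested, and 1 (NSDHL) with the trend removed. HMGCS1, STARD4 and FADS1 were lower, against 23.2%, and HMGCS1 was not called with the trend removed. Their ratios were 0.611-fold (0.566 to 0.660), 0.419-fold (0.366 to 0.479) and 0.614-fold (0.580 to 0.649). Of the fatty acid enzymes, 7 of 8 were lower, with a median of -0.39, and FADS2 was higher (0.17). EE-TOPO on day 7 stood above all 3 untreated libraries for 13 of the 31 genes, against 36.2% of all genes, and below them for 13, against 41.7%. Those below included ACAT2, HMGCS1, IDI1, SQLE, LSS and HSD17B7 of the sterol branch and ACLY, ACACA, FASN, FADS1 and ELOVL6 of the fatty acid branch.

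**Figure D3:**
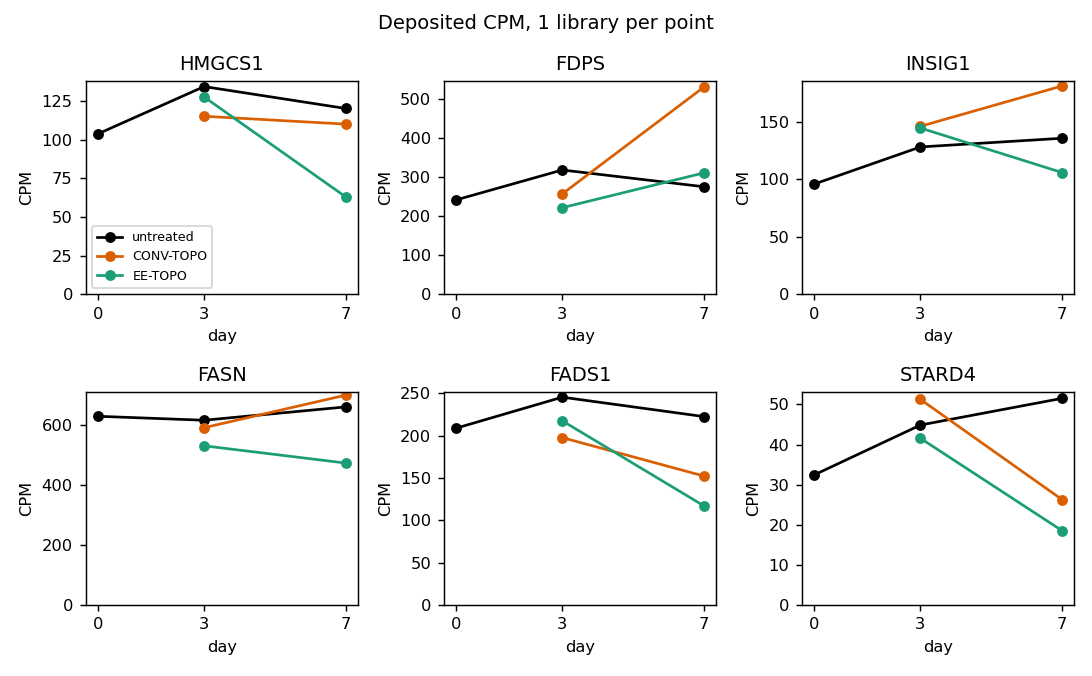
Deposited CPM (vertical axes, from 0) against day for HMGCS1, FDPS, INSIG1, FASN, FADS1 and STARD4, with 1 library per point; FADS1 and STARD4 were added after their values were seen. On day 7 EE-TOPO is below CONV-TOPO in all 6 panels, and CONV-TOPO is above the untreated library for FDPS, INSIG1 and FASN and below it for HMGCS1, FADS1 and STARD4, where HMGCS1 turns to 1.09-fold higher with TMM scaling.

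Both comparisons with untreated spheroids on day 7, and which genes were called in them, moved with transcript length and with the scaling. The trend with span, length and GC content held 49.7% of the variance over genes in CONV-TOPO and 45.6% in EE-TOPO. Over the 31 genes, which share these libraries, Spearman's rho between the ratio and transcript length was -0.83 in CONV-TOPO and -0.62 in EE-TOPO, against -0.65 and -0.61 over 11126 genes. The sterol transcripts are short (median 2131 bases) and the fatty acid transcripts long (4805 bases). With the trend removed, CONV-TOPO had a sterol median of 0.54, with 18 of 18 enzymes higher, and a fatty acid median of 0.37, with 6 of 8 higher. The gap between the branches was 0.83 before and 0.17 after the removal. Of the 13 genes called higher in CONV-TOPO 8 kept the call, IDI1 (0.69) was added, and PMVK (0.16), FDPS (0.55), TM7SF2 (0.47), DHCR7 (0.51) and FADS2 (0.49) lost it, as did STARD4 among the lower (-0.29). The highest values were then those of MSMO1 (1.03), EBP (0.90) and CYP51A1 (0.87), with MVD at 0.77. In EE-TOPO the trend-removed medians were 0.11 and -0.084, and ACAT2, HSD17B7 and FADS1 had the lowest enzyme values (-0.55, -0.65 and -0.65). Of the 6 genes called higher in EE-TOPO, NSDHL (0.66) alone kept the call. MVK (0.26), PMVK (0.25), TM7SF2 (0.12) and EBP (0.27) lost it, and MVD turned to -0.018. Of the 3 called lower, STARD4 and FADS1 kept the call, HMGCS1 (-0.31) lost it and HSD17B7 gained it. Under library totals the median of all genes was -0.26 in CONV-TOPO and -0.23 in EE-TOPO, against -0.047 and -0.043 under TMM. The sterol medians were then 0.64 and 0.0097 and the fatty acid medians -0.19 and -0.60. At 1.5-fold 10 genes were then higher and 2 lower in CONV-TOPO, and 5 higher and 8 lower in EE-TOPO. Shares of all genes past 1.5-fold were counted with TMM scaling only, so calls with the trend removed or under library totals have none beside them. The same holds for the numbers of enzymes higher with the trend removed. The part of transcript length in these ratios was not tested.

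**Figure D4:**
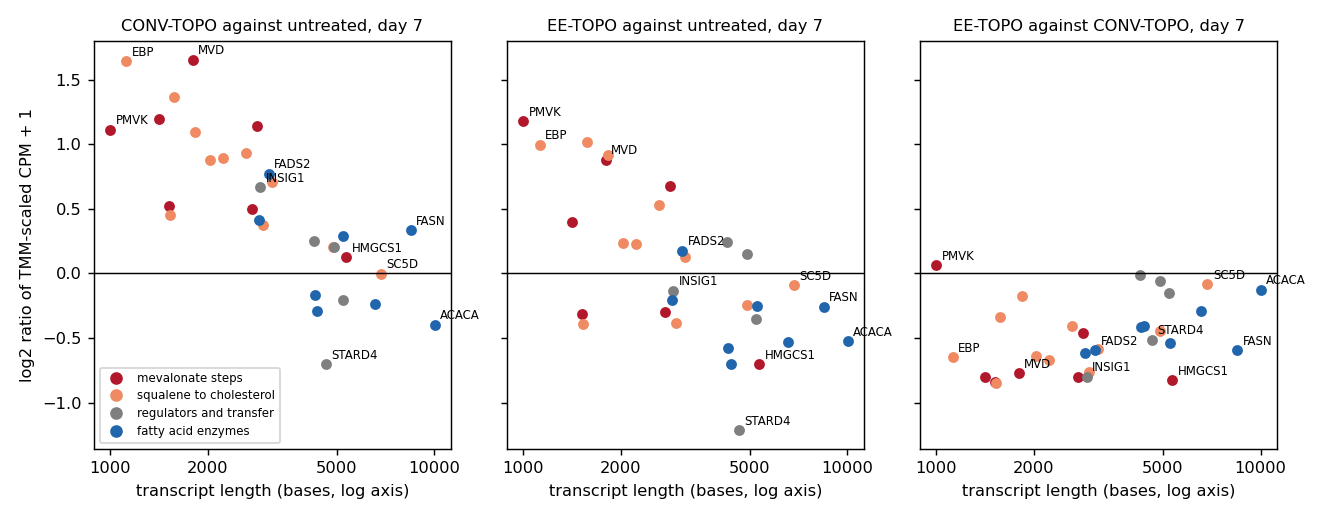
Log2 ratio of TMM-scaled CPM + 1 (vertical axis) against annotated transcript length in bases (horizontal, log axis) for the 31 genes in the 3 day 7 comparisons, with 1 library per group and colours for the gene groups. The ratio falls with length in both comparisons with untreated spheroids, and in EE-TOPO against CONV-TOPO nearly all genes lie below 0 at every length.

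On day 3 the sterol medians of both schedules lay below the untreated library of that day, by an amount that depended on the untreated library used. In CONV-TOPO the sterol median was -0.24 with 16 of 18 lower, against 7619 of the 14836 genes tested, and the fatty acid median was -0.078. Of the 31 genes 0 were called, against 4.15% of genes higher and 2.84% lower. In EE-TOPO the medians were -0.28 and -0.18, ACACA was higher at 1.5-fold (1.58-fold (1.48 to 1.69)), against 7.17% of genes, and ACAT2 (0.650-fold (0.597 to 0.708)), FDPS (0.663-fold (0.639 to 0.689)) and ACSS2 (0.616-fold (0.579 to 0.654)) were lower, against 4.39%. With the trend removed ACACA (0.14), ACAT2 (-0.42) and FDPS (-0.40) were not called and ACSS2 (-0.69) was, and with library totals ACSS2 was likewise the 1 gene lower. Against the mean of the 3 untreated libraries the sterol medians were -0.13 in CONV-TOPO and -0.27 in EE-TOPO. The limma fit over both days gave 0 of 31 genes past the adjusted threshold for CONV-TOPO and for EE-TOPO against untreated, against 0% of all genes in each. At an unadjusted p under 0.05 it was again 0 of 31 in each, against 1.73% and 3.55% of all genes.

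Medians between untreated libraries were all nearer 0 than those of EE-TOPO against CONV-TOPO on day 7 (-0.64 and -0.48). On day 3 that comparison had medians of -0.032 and -0.14, and the largest untreated medians were further from 0. Between days 0 and 3, 3 and 7, and 0 and 7, the sterol medians were 0.16, -0.10 and 0.0024 and the fatty acid medians 0.16, 0.0081 and 0.10. At 1.5-fold 0 of 31 genes differed in any of these pairs, against 6.03% of genes higher and 3.08% lower from day 0 to 3, 5.43% and 4.23% from day 3 to 7, and 6.44% and 2.16% from day 0 to 7. STARD4 varied most among the 3 untreated libraries, by 1.48-fold on the TMM scale.

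Lists of neighbouring pathways, which were chosen with earlier results of these data known, had medians nearer 0 between EE-TOPO and CONV-TOPO on day 7. All members of each list were tested. The 10 genes of the mevalonate side branches, which make isoprenoids other than sterols, had a median log2 ratio of -0.10 with 6 lower, from -0.41 for PDSS2 to 0.55 for FNTB. The 12 genes of sterol sensing and trafficking had a median of -0.12 with 7 lower, and the lowest ratio was -0.36 for NPC1, the lysosomal cholesterol exporter. The 7 LXR receptors and targets, which respond to surplus sterol, had a median of 0.11 with 5 higher, and ranged from -0.40 for SMPDL3A to 1.07 for MYLIP, a ubiquitin ligase of lipoprotein receptors. The 20 genes of elongation, activation and glycerolipid assembly had a median of -0.074 with 14 lower, from -0.52 for SCD5 to 0.56 for DGAT2. The 13 genes of fatty acid oxidation had a median of -0.072 with 9 lower, from -0.46 for CPT2 to 0.20 for CPT1A.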

How the data were processed

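Libraries of PC-3 spheroids were made with a TruSeq RNA v2 kit, which does not mark strand, and the authors aligned reads with STAR to the hg38 build and worked in Partek Flow; the annotation and the counting settings are not given in the sources used here. The deposited values are CPM (read counts scaled to the library total), 1 column per library, with 0.0001 added by the authors, which was subtracted. Depth was estimated from the CPM worth of 1 read in each library as 15028000 to 22477000 reads. At this scale 90.1% to 91.6% of low values were whole within 0.1 reads, too few for a count test. Intervals (95%, exact conditional binomial on the estimated reads) cover counting error only, and 3 reads corresponded to 0.133 to 0.200 CPM.

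Libraries were scaled by TMM computed on the CPM, and ratios were taken on log2(scaled CPM + 1). This log2 scale understates changes of low genes. Genes with at least 10 reads at the median depth (0.528 CPM) in at least 2 libraries were tested. Treatment effects were fitted with limma 3.58.1 in R 4.3.3 (treatment and day, eBayes with trend, Benjamini-Hochberg), tested on simulated data. Replicates were not available, so p-values rest on variation between days, with each gene's spread drawn by eBayes toward that of all genes. They do not measure variation between replicates. Alternatives were library totals, median-of-ratios scaling, other pseudocounts, filters and fold thresholds, other untreated baselines and 4-library or day-free fits. Fitting and subtracting a quadratic trend on gene span, length of the transcript and GC content (GENCODE 44) was added after the data were seen. The members and lists were chosen with earlier results of these data known. By rule, values in every library are given for members at least 1.5-fold apart between EE-TOPO and CONV-TOPO on day 7 and for the 2 members with the highest mean CPM in each of the 4 groups.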

Additional observations from a re-analysis of the deposited data

Results flagged for a closer look

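Some medians lay on opposite sides of 0 on the 2 days, and these differences between days were not tested, since each day had 1 library per treatment. The median log2 ratio of the sterol enzymes in CONV-TOPO against untreated spheroids was -0.24 on day 3 and 0.89 on day 7. The same contrast gave -0.078 and 0.061 for the fatty acid enzymes. In EE-TOPO against untreated spheroids the sterol enzymes were at -0.28 on day 3 and 0.23 on day 7. With library totals in place of TMM scaling the day 7 value of the fatty acid enzymes in CONV-TOPO was -0.19, on the same side of 0 as the day 3 value of -0.033, and that of the sterol enzymes in EE-TOPO was 0.0097.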

How the results depend on the processing

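Of 80 alternative values for the branch medians, 71 stayed within the spread set for them, 8 moved and 1 reversed, and of 60 alternative counts 46 stayed within 1.5 times. Some of the 71 could not change. All 31 genes passed the filter, so medians without it were the same, and no sterol enzyme was under a mean of 10 CPM. For EE-TOPO against CONV-TOPO on day 7 both medians stayed within that spread under each alternative tried, and the count of 14 lower genes was 12 with library totals, 14 with the trend removed (13 of them shared) and 0 at 2-fold. With library totals, CONV-TOPO against untreated on day 7 had a sterol median of 0.64, a fatty acid median of -0.19 (reversed) and 2 genes lower, and EE-TOPO had medians of 0.0097 and -0.60 with 8 genes lower on day 7 and 1 on day 3. With the trend with span, length and GC content removed, CONV-TOPO on day 7 had medians of 0.54 and 0.37 and 0 genes lower, and EE-TOPO had medians of 0.11 and -0.084 and 1 gene higher on day 7, and 0 higher and 1 lower on day 3. Without ELOVL6, the member under a mean of 10 CPM, the fatty acid median of CONV-TOPO on day 7 was 0.29. At 2-fold, 7 genes were higher and 0 lower in CONV-TOPO on day 7, 2 higher and 1 lower in EE-TOPO on day 7, and 0 in either direction in EE-TOPO on day 3. Shares of all genes were counted at 1.5-fold with TMM scaling only, so these alternative counts of called genes have none beside them. Over all 14836 genes, fits on only the 4 libraries of a comparison gave 80 limma calls for EE-TOPO against CONV-TOPO, 34 for EE-TOPO against untreated and 9 for CONV-TOPO against untreated, in place of 0, and 1, 0 and 0 of these were among the 31 genes. The causes were not tested. The labels give no replicate numbers to pair, and the limma fits compare treatments within days through their day term, except the fit without it. Without replicates, depth limits only the counting error, and biological variation could not be measured.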
